A study of Mus musculus with 12 samples.

Results

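The input transcriptome of cultured dorsal root ganglion (DRG) neurons is described here from 6 of the 12 libraries of the series, 3 labelled Rpl22HA/HA Runx3-Cre+ and 3 labelled Rpl22HA/HA Runx3-Cre-. The other 6 are HA pull-downs, whose counts were used here only in 1 alternative fit and for a check of Runx3, although they also bear on which genes are listed and tested. An input library was made from 10% of the cleared lysate before the pull-down, so it holds RNA of all cells in the dish, whether or not they carry the tag. Both groups are homozygous for an Rpl22 allele that gains an HA tag once Cre acts. In the Cre+ mice, Cre is driven by Runx3, a transcription factor of proprioceptive neurons, so only a minor class of neurons should carry the tag, and the Cre- mice should carry none. All mice were adult males. The labels give 3 to 6 months of age, and the study's methods give a younger range. Each sample pooled neurons from all ganglia of 5 mice, which were enriched over a 20% Percoll cushion that is meant to remove myelin debris and glia, plated on poly-L-lysine and laminin, and kept for 24 h in F12 medium with 10% fetal bovine serum.

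The question put to these libraries was which genes and cell types make up such a culture, and whether the genotypes differ before any pull-down. A DRG holds the cell bodies of the sensory neurons of the body wall and limbs. They fall into proprioceptors (muscle stretch), fast A fibre neurons (touch), C low-threshold mechanoreceptors, peptidergic and non-peptidergic nociceptors, and neurons of itch and cold, each wrapped by satellite glia and, along the axon, by Schwann cells. Dissociation cuts the axons of all of them, so a culture of adult DRG neurons is also a model of axon injury, in which a known set of growth and stress genes is switched on.

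The deposited counts of read fragments covered 9112 genes present in the tables of both genotypes. Counts on these genes summed to 9957913, 13087046 and 13941113 in the Cre+ inputs 1, 2 and 3, and to 9187175, 11046152 and 11914782 in the Cre- inputs. Levels below are normalized counts, that is, counts per 1000000 (CPM) relative to these sums after trimmed-mean (TMM) scaling. In most places where levels of different genes are set side by side they were also divided by transcript length, as normalized counts per kb. Values given as normalized counts alone were not divided. The Cre+ table lists only genes with at least 5 counts in every Cre+ library, pull-downs included. A gene that is low in 1 pull-down is therefore missing from the shared set, and the 5065 genes of the Cre- table alone have values for the 3 Cre- inputs only. All fits here use the shared genes.

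The genotype labels were followed as deposited, with 1 reservation. Runx3, the gene that drives Cre, had 17, 96 and 205 counts in the Cre+ pull-downs, against 372, 532 and 691 in the Cre- pull-downs. As CPM this is 1.91, 9.61 and 17.9 against 20.4, 32.6 and 47.4, so the groups did not overlap and the higher one was that labelled Cre-. In the inputs Runx3 was low in both, at normalized counts of 5.00, 2.80 and 6.40 in the libraries labelled Cre+ and 5.24, 2.09 and 3.18 in those labelled Cre-. Rpl22 itself, the tagged ribosomal protein gene, was at 115, 52.0 and 59.6 in the libraries labelled Cre+ and at 67.1, 58.0 and 52.9 in those labelled Cre-, and its counts do not show whether the tag is present. Every direction given below between genotypes therefore rests on the labels.

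Neuronal genes led the messengers in the dish. The largest share of counts went to Rn45s, the ribosomal RNA precursor, with 5.84% to 8.53% per library, which is not a messenger. Next came Map1b, a microtubule-associated protein of growing axons, with a mean of 2.10% of the counts, the neurofilament genes Nefl (0.940%) and Nefm (0.711%), and Snap25, a protein of synaptic vesicle fusion (0.786%). The 20 genes with the largest shares took 16.1% to 18.5% of the counts in each library, and the first 1000 took 61.3% to 62.4%.

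Divided by length, Snap25 led at 3720 ± 908 normalized counts per kb (mean ± SD, n = 6), followed by Calm2 (2960 ± 1164) and Nefl (2784 ± 271). Calm2 encodes calmodulin, and because only uniquely mapped reads were counted, genes with near-identical copies such as this one may be undercounted. Also among the first 20 were Cd24a (2434 ± 556), Nefm (2134 ± 304), Map1b (1778 ± 307), Pmp22 (1670 ± 417), the growth-associated tubulin Tuba1a (1237 ± 307), Rtn4, which encodes Nogo (1072 ± 162), and Calca, which encodes the peptide CGRP of pain fibers (1033 ± 361). Calca, at rank 20, was at 1760 normalized counts in Cre+ input 1 and at 858 to 900 in the other inputs, so its place rests on that library. The median over all shared genes was 11.2 per kb. Mir6236, at rank 4 with 2707 per kb, is a model of only 123 bases. Cdr1, at rank 12 with 1406 per kb, overlaps another annotated gene over 100% of its exons, and with counting not stated to use strand its value cannot be assigned to it alone. The same limit holds in part for Nefl, Tuba1a, Nefm and Rtn4, whose exons overlap other genes over 32.8%, 26.2%, 19.2% and 18.4% of their length. Among the first 5, neighbors in the order differed by less than the larger of their SDs, and 12 genes were in both lists of 20.

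The lists of marker genes gave the makeup of the culture. They hold 226 genes in 20 lists, of which 134 were in both tables, 58 in the Cre- table only and 34 in neither. As a share of length-scaled counts, the 15 pan-neuronal genes took 3.24% to 3.96% per library and the 29 injury-response genes 1.54% to 1.79%. The 10 Schwann cell genes took 0.648% to 0.971%, and the 9 sensory neuron identity genes 0.250% to 0.366%. Without length scaling the Schwann cell list took 0.383% to 0.585% and the sensory neuron identity list 0.306% to 0.434%, so their ranges overlapped. The 6 fibroblast genes in both tables took 0.00869% to 0.0141%, and the 8 endothelial genes 0.0128% to 0.0169%. The 4 pericyte and smooth muscle genes took 0.00516% to 0.00807%. Only 2 of the 17 macrophage genes were in both tables, and they took 0.00746% to 0.0340%. Lists of minor neuron classes lay in or near this range, with 0.00930% to 0.0211% for itch and cold neurons, 0.0182% to 0.0339% for C low-threshold mechanoreceptors and 0.0323% to 0.0462% for proprioceptors. Lists differ in size, so these shares describe the lists and not numbers of cells. In bulk RNA, fewer cells of a type and less RNA per cell cannot be told apart.

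**Figure D1:**
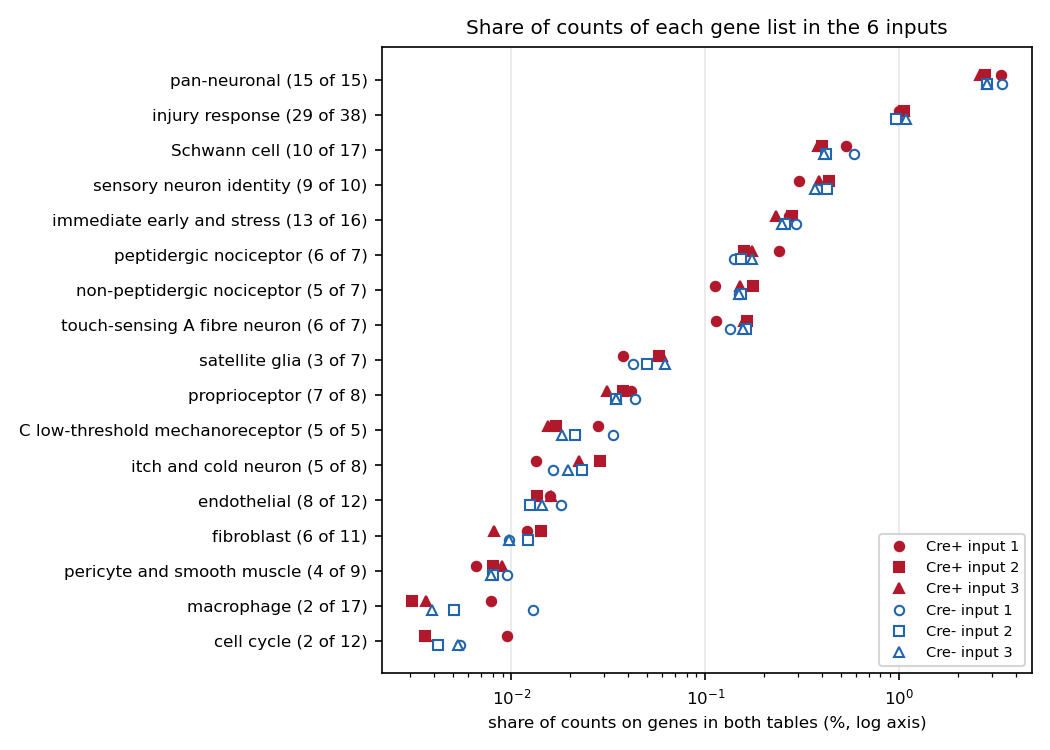
Share of the counts on shared genes (percent, log axis) taken by each list in each of the 6 inputs, with the number of members in both tables given after the list's name (red filled, Cre+; blue open, Cre-; circle, square and triangle, libraries 1, 2 and 3). The pan-neuronal list lies between 2.60% and 3.41%, and the fibroblast, endothelial, pericyte, macrophage and cell cycle lists lie below 0.02%.

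All 15 pan-neuronal genes were in both tables, and 14 of them averaged at least 100 normalized counts, against 22.9% of all shared genes. Their median was 171 per kb. The 9 sensory neuron identity genes in both tables had a median of 67.0 per kb. Pirt, a membrane protein of nearly all DRG neurons, stood at 257 per kb, and the intermediate filament gene Prph at 283. Avil, an actin-binding protein of sensory neurons, stood at 157 per kb, and the transcription factors Pou4f1 and Isl1 at 51.0 and 14.9. The sodium channel genes Scn9a, Scn10a and Scn11a, which set the firing of pain neurons, stood at 67.0, 85.6 and 41.8 per kb. Regulators that are known to act mainly in development were low, Tlx3 at 2.61 per kb over both genotypes and Prrxl1 at 1.38 in the Cre- inputs.

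Genes of every listed class of sensory neuron were detected, at very different levels. Among peptidergic nociceptor genes, Calca stood at 1033 per kb, and its paralog Calcb, Adcyap1 (the peptide PACAP) and Tac1 (substance P) at 133, 114 and 84.7. Trpv1, the capsaicin receptor, was in the Cre- table only, at 1.78 per kb. The non-peptidergic class was marked by P2rx3, the ATP receptor, at 454 per kb, Scn11a at 41.8, Plxnc1 at 35.9 and Mrgprd at 12.6. Lpar3, in the Cre- table only, stood at 11.1 per kb.

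The touch-sensing A fibre list had a median of 11.6 per kb over 6 genes. Ret, the receptor subunit for the GDNF family, which marks several classes, was at 146 per kb, the mechanotransduction channel gene Piezo2 at 39.6, and Ntrk2, Maf and Calb1 at 7.06, 3.69 and 3.30. The proprioceptor list had a median of 5.08 per kb over 7 genes. Slc17a7, a vesicular glutamate transporter that other large neurons also use, was at 29.7 per kb, Etv1 at 10.9, Esrrg at 5.08, the neurotrophin-3 receptor gene Ntrk3 at 3.93 and Runx3 at 1.06. Spp1 was at 66.9 per kb, but it is also made by cells other than neurons. Pvalb, the calcium buffer that defines proprioceptors, was listed in the Cre- table only, at 8.73 per kb. Of the C low-threshold mechanoreceptor genes, Gfra2 and Th stood at 32.4 and 22.0 per kb and Slc17a8 at 2.38. The itch and cold list had the lowest median of the neuronal lists, 3.98 per kb, with Osmr at 25.7, Trpa1 at 8.28, Trpm8 at 2.34 and Il31ra at 3.31. Nppb was in neither table.

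**Figure D2:**
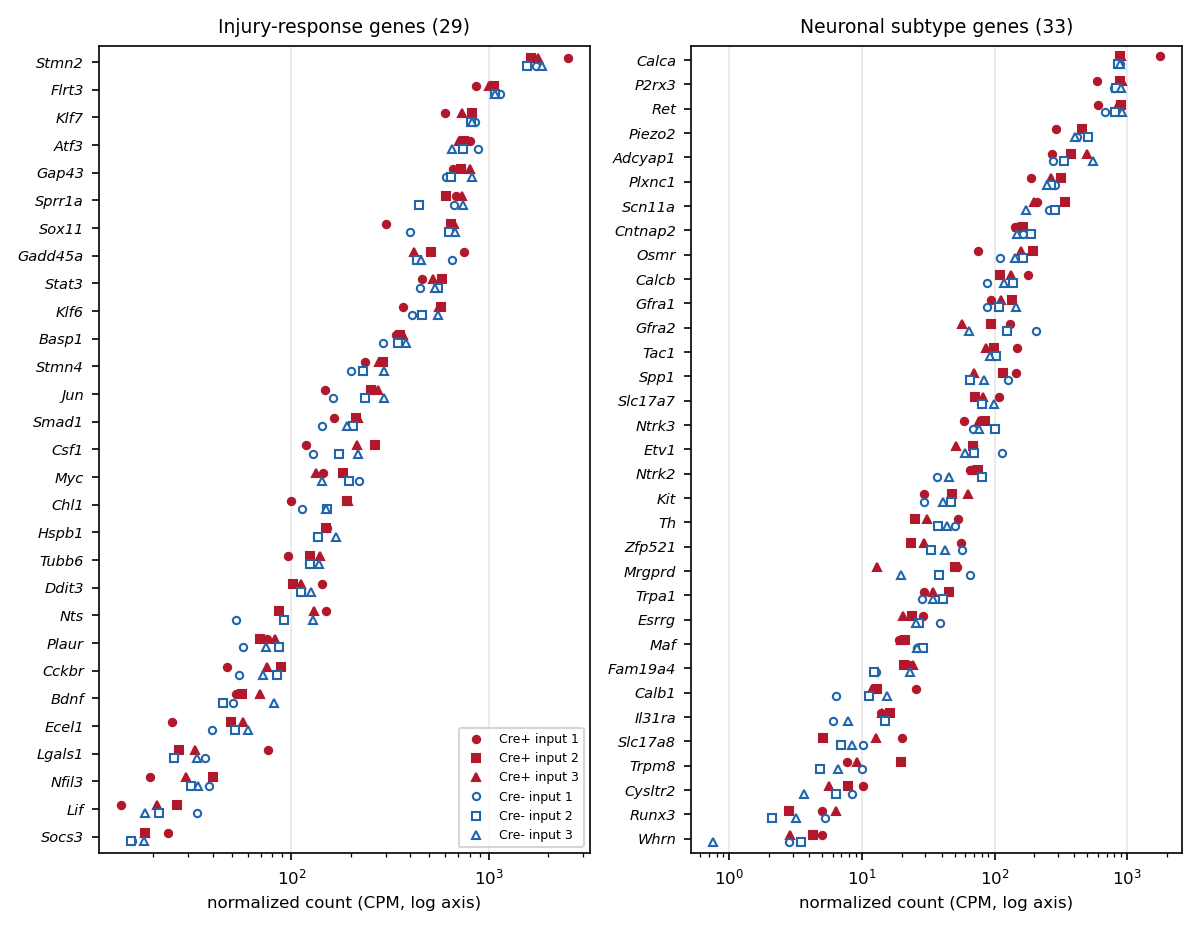
Normalized count (CPM, log axis) of each of the 29 injury-response genes (left) and of 33 neuronal subtype genes in both tables (right), 1 point per input (red filled, Cre+; blue open, Cre-; circle, square and triangle, libraries 1, 2 and 3). Genes are ordered by their mean; the injury-response means run from 18.1 for Socs3 to 1843 for Stmn2, and the red and blue points overlap for nearly every gene.

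Most genes of the injury program were measured in all 6 libraries. Of the 38 genes on the list, 29 were in both tables, 8 in the Cre- table only and 1 in neither. Those 29 averaged at least 10 normalized counts, as did 85.7% of all shared genes, and 21 of them at least 100, against 22.9%, with a median of 72.4 per kb. Of the 8 in the Cre- table only, 2 averaged at least 10. No uninjured ganglion was analysed here, so these are levels and not inductions. Stmn2, a tubulin-binding protein of growth cones, stood at 889 ± 164 per kb (SD, n = 6). Sprr1a, a small proline-rich protein that adult DRG neurons make after axotomy, stood at 800 ± 137 per kb, at rank 30 of all genes with a length. Gap43, the growth cone protein, was at 501 ± 62.8, and Gadd45a, a DNA damage response gene, at 438 ± 111, with 19.1% of its exon length shared with other annotated genes.

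Per kb, the transcription factors of the program were led by Atf3, which is the standard marker of an axotomized sensory neuron. Its normalized counts were 799, 751 and 703 in the Cre+ inputs and 878, 742 and 652 in the Cre- inputs, that is 380 ± 39.4 per kb. All 6 libraries lay in 1 narrow range and the groups overlapped. Jun, its partner, averaged 71.7 per kb, Sox11 66.3, Klf6 115, Klf7 101, Stat3 85.3, Smad1 60.9 and Myc 72.4. Exons of Klf7 overlap other annotated genes over 39.4% of their length. Flrt3, an adhesion protein, averaged 260 per kb, and Csf1, the cytokine through which injured neurons call microglia, 44.7. Of the neuropeptides that nerve injury is known to induce, Nts stood at 85.4 per kb. Gal was in the Cre- table only, at 31.9 per kb, Npy was there at 1.58 per kb, with 0.0908 to 2.26 normalized counts, and Vip was in neither table. Ankrd1 was listed at 0 counts in 1 Cre- input and Il6 at 0.655 to 0.837 normalized counts.

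Levels on the immediate early and stress list differed widely between its genes. Dusp1, a phosphatase, was at 654 per kb, Egr1 at 52.9, Fosl1 at 57.3 and Hmox1, heme oxygenase, at 140. Fos stood at 3.97 per kb, Junb at 4.22 and Nr4a1 at 2.36. Exons of Fosl1 overlap other annotated genes over 57.2% of their length.

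The start regions of 2 injury genes show the letters that AP-1 factors, dimers of Jun with Fos or Atf members, are known to bind, TGANTCA, searched on both strands from 250 bases before to 50 bases after each RefSeq start on GRCm38.p6. Sprr1a and Plaur were picked for print after the search. The 30-base stretches are given in the direction of the gene with the match in capitals, and the Sprr1a stretches adjoin each other at chr3:92486009-92486038 and chr3:92485979-92486008 on the minus strand, the match starting 146 and 116 bases before the gene's start. The Plaur stretch lies at chr7:24462403-24462432 on the plus strand, its match 69 bases before the start.
Sprr1a, distal: ataactaaagcTGAGTCAgagggtgaacta
Sprr1a, proximal: ggggaggagggTGAGTCAtaggtgactggt
Plaur: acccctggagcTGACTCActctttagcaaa
The injury-response genes with a promoter entry were 23, with 29 promoters between them. A match was found in 6 of these promoters (20.7%) and in 5.06% of the 9069 promoters of shared genes. A match is only a run of letters, and binding was not measured.

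Glial genes gave a split picture. Pmp22, a myelin protein that other cells also make, stood at 1670 per kb, Ngfr, the p75 receptor, which sensory neurons make too, at 293, and S100b, which large DRG neurons also make, at 245. Other genes of myelin and of the Schwann cell lineage were lower. Mbp stood at 5.07 per kb, Drp2 at 2.08 and Sox10 at 15.4. Mag, Ncmap and Erbb3 were in neither table. Sox10 was at 114 normalized counts in Cre+ input 1 and at 18.7 to 32.7 in the other 5 libraries. The satellite glia list was carried by Glul, glutamine synthetase, at 178 per kb, while Apoe stood at 7.88 and Gja1 at 2.59. Fabp7 and Kcnj10 were in the Cre- table only, at 1.54 to 3.43 and 0 to 1.45 normalized counts, and Slc1a3 was in neither table. Of both glial lists, then, the members with high levels were Pmp22, Ngfr, S100b and Glul, and which cells made them was not tested. The other members were low or not in both tables, apart from Sox10. At 15.4 per kb over the 6 inputs, Sox10 lay above the median of 11.2 per kb over all shared genes, but this rests on Cre+ input 1. Without that library its mean fell from 41.8 to 27.2 normalized counts, against a median of 37.4 over all shared genes.

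Genes of the other cells of the ganglion were mostly low or not in both tables. Of 17 macrophage genes only Cd68 and Csf1r were in both tables, at 45.6 and 1.25 per kb. In the Cre- table only, Lyz2 stood at 10.7 per kb and Itgam at 1.52, and 5 were in neither table, among them Aif1 and C1qa. The fibroblast list had a median of 2.58 per kb, with Dcn highest at 24.0, and among the endothelial genes Emcn stood at 13.8 and Cdh5 at 10.7. Rgs5, of pericytes, stood at 15.9 per kb. Dcn, Cd68, Rgs5 and Emcn lay above the median of 11.2 per kb over all shared genes, and the other 16 of these genes in both tables lay below it. None of the 9 lymphocyte and neutrophil genes, 5 red blood cell genes and 7 striated muscle genes was in both tables, and the 5 of them in the Cre- table averaged 0.167 to 0.888 normalized counts. Of 12 cell cycle genes, Ccna2 and Pcna alone were in both tables, at 4.97 and 25.2 per kb, and Mki67 and Top2a averaged 2.77 and 0.854 normalized counts in the Cre- inputs.

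The inputs of both genotypes were then compared. By the quasi-likelihood test of edgeR, 0 of 8954 genes tested passed a false discovery rate (FDR) of 0.1 with a 2-fold change, which is 0% of those tested, and the smallest FDR was 0.999. At an unadjusted p below 0.05 there were 181 genes, fewer than the 448 expected without differences, so this test was conservative. It left out the library number, which is treated further below. With the number as a block in the same test, 298 genes had such a p and the smallest FDR was 0.630. The intervals given below are from the fit without the block. A single gene, Stmn1, was called by DESeq2, and the same gene by the exact test of edgeR. The median difference over all genes was 0.01 on the log2 scale, its median standard error 0.27, and for 68.2% of the genes the 95% interval of the difference lay inside a 2-fold change in both directions. For the remainder a 2-fold change was not excluded, so a lack of calls does not show equal levels. Cre+ inputs were all above Cre- inputs for 338 genes (3.77%) and all below for 348 genes (3.89%).

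**Figure D3:**
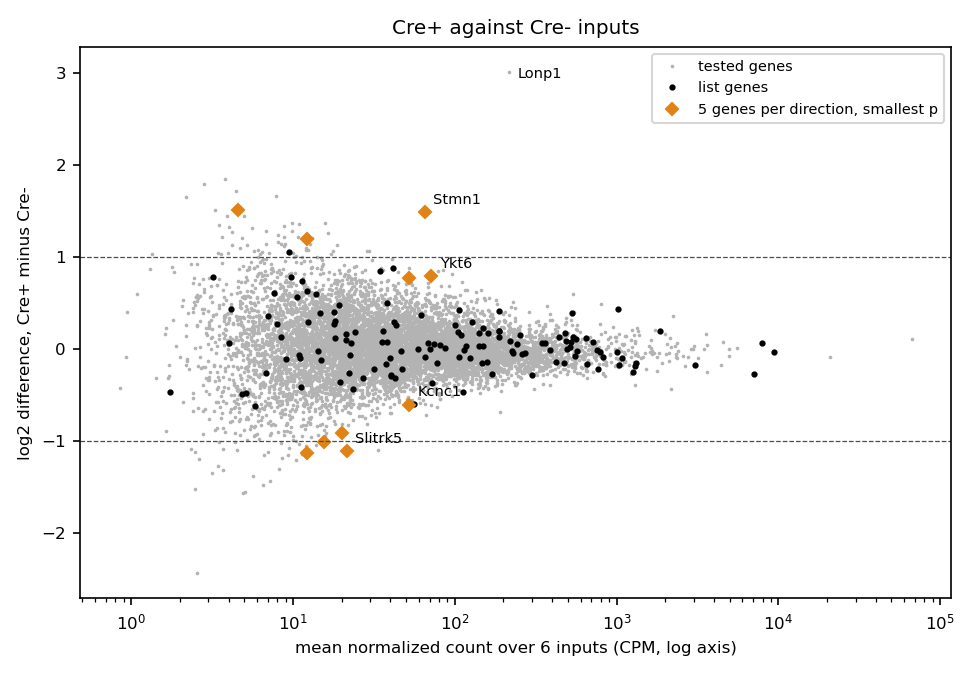
Log2 difference between inputs, Cre+ minus Cre-, against the mean normalized count over 6 inputs (CPM, log axis) for the tested genes (gray), the list genes (black) and the 5 genes with the smallest p in each direction among those whose groups do not overlap (orange diamonds); dashed lines mark a 2-fold change. No point passes the FDR of 0.1, and Lonp1 at 3.01 is set by 1 library.

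Stmn1 (chr4:134468320-134473843 on GRCm38), the ubiquitous stathmin that binds free tubulin, had the smallest p. Its normalized counts were 120, 93.0 and 75.7 in the Cre+ inputs and 37.0, 22.1 and 43.8 in the Cre- inputs. Each Cre+ library was above each Cre- library, with a log2 difference of 1.49 ± 0.28 (SE) and an unadjusted p of 0.00031 in edgeR, which did not pass after adjustment. Its FDR was 0.0064 with DESeq2 and 0.0068 with the exact test, and over all alternatives it ran from 2.7e-06 (replicate block, without Cre- input 3) to 1 (all 12 libraries in a single fit). The log2 difference was positive in every one of them. Its paralogs Stmn2, Stmn3 and Stmn4 had log2 differences of 0.20, 0.41 and 0.15, with overlapping groups.

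The other genes with the smallest p among those whose groups did not overlap did not pass the FDR either. Higher in the libraries labelled Cre+ were Ykt6, a membrane fusion protein (log2 difference 0.79), Srrd (1.20), Eps8, an actin capping protein (0.78), and Chaf1a, a histone chaperone of replicating cells (1.51). Exons of Srrd and Chaf1a overlap other genes over 31.4% and 52.5%. Lower were Slitrk5, a synaptic adhesion protein (-1.11), Hs6st2, a heparan sulfate enzyme (-0.91), 2810006K23Rik (-1.01), LOC101056043 (-1.13) and Kcnc1, a potassium channel of fast-firing neurons (-0.60). Actn1, an actin crosslinker that was called only in fits with the replicate block and a library numbered 1 left out, was at 17.9, 21.6 and 25.0 against 23.7, 47.6 and 66.9, with overlapping groups. The values of Kcnc1 were 46.3, 37.9 and 40.5 against 69.2, 68.7 and 51.7.

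None of the 132 list genes tested was called. The 95% interval lay inside a 2-fold change for 95 of them (72.0%, against 68.2% of all genes). Groups did not overlap for 2 genes that were higher in Cre+ (1.52% of the list genes, against 3.77% of all genes), Dhh and Socs3, and for 5 that were lower (3.79%, against 3.89%), Nefm, Nefh, Rbfox3, Maf and Flrt3. Proprioceptor genes, the class that the driver marks, had a median log2 difference of 0.01 over 7 genes and overlapping groups throughout. For Atf3 the difference was -0.01 with a 95% interval of -0.37 to 0.34, for Gap43 0.08 (-0.30 to 0.45) and for P2rx3 -0.08 (-0.49 to 0.32), so a 2-fold difference in these genes lies outside the interval.

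Libraries differed from each other in ways that the genotype did not follow. Correlation of log2 levels across the 8954 genes, which share the same libraries and are not replicates, was 0.974 to 0.978 among the 4 libraries numbered 2 and 3. It was 0.948 to 0.953 between Cre- input 1 and those 4, and 0.914 to 0.923 between Cre+ input 1 and any other. Cre+ input 1 held relatively more counts of short transcripts. Over the fifth of the genes with the shortest transcripts (up to 2037 bases) its median deviation from the mean of the 6 inputs was 0.44 on the log2 scale, and over the fifth with the longest (5649 bases and more) it was -0.40. In the other 5 libraries these medians lay between -0.14 and 0.01 for the shortest genes and between -0.05 and 0.15 for the longest.

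**Figure D4:**
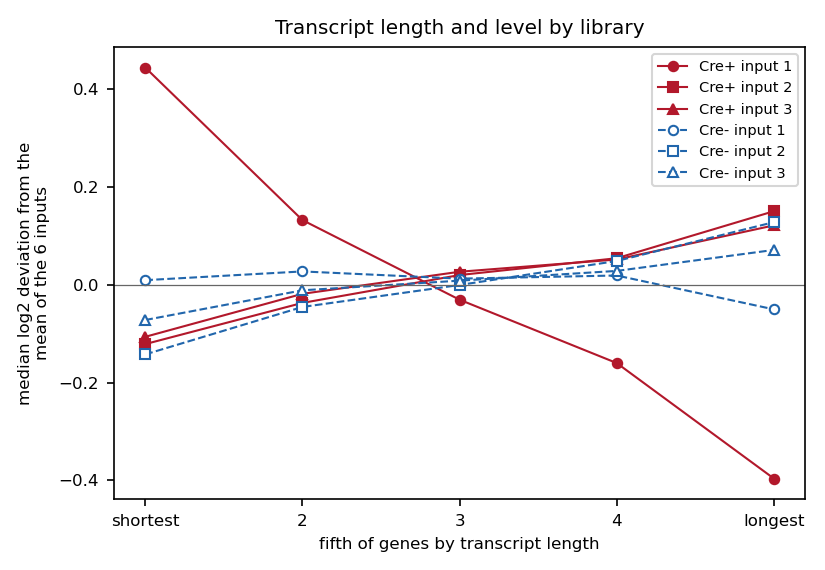
Median log2 deviation of each library from the mean of the 6 inputs (vertical axis) over the genes split into 5 equal groups by transcript length (horizontal axis), 1 line per library. Cre+ input 1 runs from 0.44 for the shortest group to -0.40 for the longest, and the other 5 libraries stay between -0.14 and 0.15.

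This library also set several of the most variable genes. Of the 10 genes with the largest SD of log2 level among those averaging at least 10 normalized counts, 8 were lowest in Cre+ input 1, among them Itgb3, an integrin (0.511 against 12.1 to 28.3), Unc5d, a netrin receptor (1.02 against 10.1 to 17.9), and Egflam (5.41 against 43.7 to 63.0). Lonp1, the mitochondrial protease at chr17:56614297-56626887, went the other way, at 1068 normalized counts in Cre+ input 1 and 42.5 to 52.5 in the other 5. Its fitted genotype difference of 3.01 rests on this library.

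The labels number the libraries 1 to 3 in each genotype, and libraries of the same number deviated together. A test of the number, adjusted for genotype, called 302 of 8954 genes at an FDR of 0.1 (3.37%), against 0 by genotype. Libraries numbered 1 stood apart from the rest for nearly all of these. Both were above the other 4 for 168 genes, with a median transcript length of 1730 bases, and both were below them for 131 genes, with a median of 7099, against 3519 over all tested genes. Ext2, a heparan sulfate polymerase, was at 456 and 399 in the libraries numbered 1 and at 100.1 to 170 in the other 4 (FDR 0.0058), and Slc25a4, the mitochondrial ADP/ATP carrier, at 2633 and 1946 against 801 to 1061 (FDR 0.011). In the opposite direction, Sez6l, a neuronal membrane protein, was at 40.5 and 56.7 against 114 to 184 (FDR 0.021). With a length trend removed from each library 321 genes were called, 179 of them among the 302. Without Cre+ input 1 the test called 904 genes, and without Cre- input 1 it called 3042. Number 1 is then represented by a single library. The meaning of the number, such as a day of preparation, is not given in the sources used here.

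Genes of the interferon response were among those higher in both libraries numbered 1. Interferon switches on a set of antiviral genes through factors that bind the interferon-stimulated response element. Ifit1, an antiviral RNA-binding protein, was at 63.1 and 82.3 in Cre+ and Cre- input 1, at 16.6 and 20.5 in the libraries numbered 2, and at 12.9 and 16.8 in those numbered 3. The libraries numbered 1 were 4.36-fold above the mean of the others (FDR 0.011 in edgeR). Oasl2 was at 298 and 353 against 112 to 132 (2.62-fold, FDR 0.011), and Rsad2, viperin, at 99.5 and 76.7 against 15.2 to 35.5 (3.22-fold, FDR 0.037). For each of these 3 genes both libraries numbered 1 lay above all others, in both genotypes.

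B2m, the light chain of MHC class I, was at 582 and 632 against 290 to 400 (FDR 0.033), but its FDR became 0.555 once the length trend was removed. Lgals3bp was at 133 and 176 against 79.0 to 94.7 (FDR 0.070). A list of 38 interferon-response genes was written after these values had been seen. Of its 17 members in both tables, 5 were called by number, the 5 just named, against 3.37% of all tested genes, and for 10 both libraries numbered 1 lay above the other 4, as they did for 16.7% of all tested genes. Among the 12 not called were Irf9 (28.0 and 17.9 against 5.14 to 11.3) and Eif2ak2 (33.5 and 47.7 against 38.9 to 60.4).

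Stretches of the start regions of 3 of these genes are shown because they hold the core of the interferon-stimulated response element, a pair of GAAA runs 2 bases apart on either strand, in capitals. Ifit1 has it as a pair on the opposite strand, 104 and 85 bases before its start, at chr19:34640785-34640814 (plus strand). The Rsad2 match begins 120 bases before the start at chr12:26456553-26456582 (minus strand), and the B2m match 139 bases before it at chr2:122147538-122147567 (plus strand), all from RefSeq on GRCm38.p6.
Ifit1: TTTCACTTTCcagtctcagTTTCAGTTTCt
Rsad2: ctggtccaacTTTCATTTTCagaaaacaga
B2m: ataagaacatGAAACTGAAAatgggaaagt
The motif was found in 8 of 15 promoters of the 13 interferon-response genes that have an entry and in 2.69% of the 9069 promoters of shared genes. Whether any factor was bound there was not measured.

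Of the list genes, 15 of 132 (11.4%) were called by number, against 3.37% of all tested genes. The lists were chosen with earlier results of these data known and hold many genes at high levels. The 2 shares were not matched for level, so they do not show a trait of marker genes. In the injury list 4 of 29 were called. Sox11 was lower in libraries numbered 1, at 301 and 396 against 629 to 671 (FDR 0.037), and so were Jun, at 147 and 163 against 237 to 295 (FDR 0.051), and Csf1, at 119 and 129 against 174 to 264 (FDR 0.098). Gadd45a was higher, at 750 and 650 against 415 to 512 (FDR 0.072), and its FDR was 0.476 after the length trend was removed. The calls of Csf1 and Gadd45a were lost with 1 library left out (FDR 0.116 without Cre+ input 2 and 0.178 without Cre+ input 3). Atf3 and Gap43 were not called (FDR 0.438 and 0.307). Cd68, the 1 macrophage gene with a sizable level, was at 78.5 and 127 in the libraries numbered 1 and at 23.9 to 42.5 in the other 4 (FDR 0.027). Csf1r, the defining macrophage gene in both tables, was at 1.23 and 3.06 against 4.48 to 8.36, from 12 to 92 counts, and was not called (FDR 0.246). The part of macrophages in the Cd68 difference was not tested. In the immediate early and stress list 4 of 13 were called. Hmox1, Fosl1 and Mt1 were highest in libraries numbered 1 (FDR 0.046, 0.072 and 0.080), but once the length trend was removed Fosl1 and Mt1 were no longer called (FDR 0.1045 and 0.249). The call of Hmox1 was lost without Cre+ input 3 (FDR 0.146), that of Fosl1 without Cre+ input 3 or Cre- input 3 (0.1985 and 0.326) and that of Mt1 without Cre+ input 1 or Cre+ input 3 (0.108 and 0.205). Egr1 was lowest in libraries numbered 1, at 122 and 106 against 143 to 246 (FDR 0.077, and 0.513 without Cre+ input 2). Osmr, a cytokine receptor subunit of itch neurons, was at 75.3 and 111 against 142 to 194 (FDR 0.09996, and 0.185 without Cre+ input 2). Pmp22 (FDR 0.037) and Snap25 (FDR 0.039) were also higher in libraries numbered 1, by 1.55-fold and 1.53-fold.

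**Figure D5:**
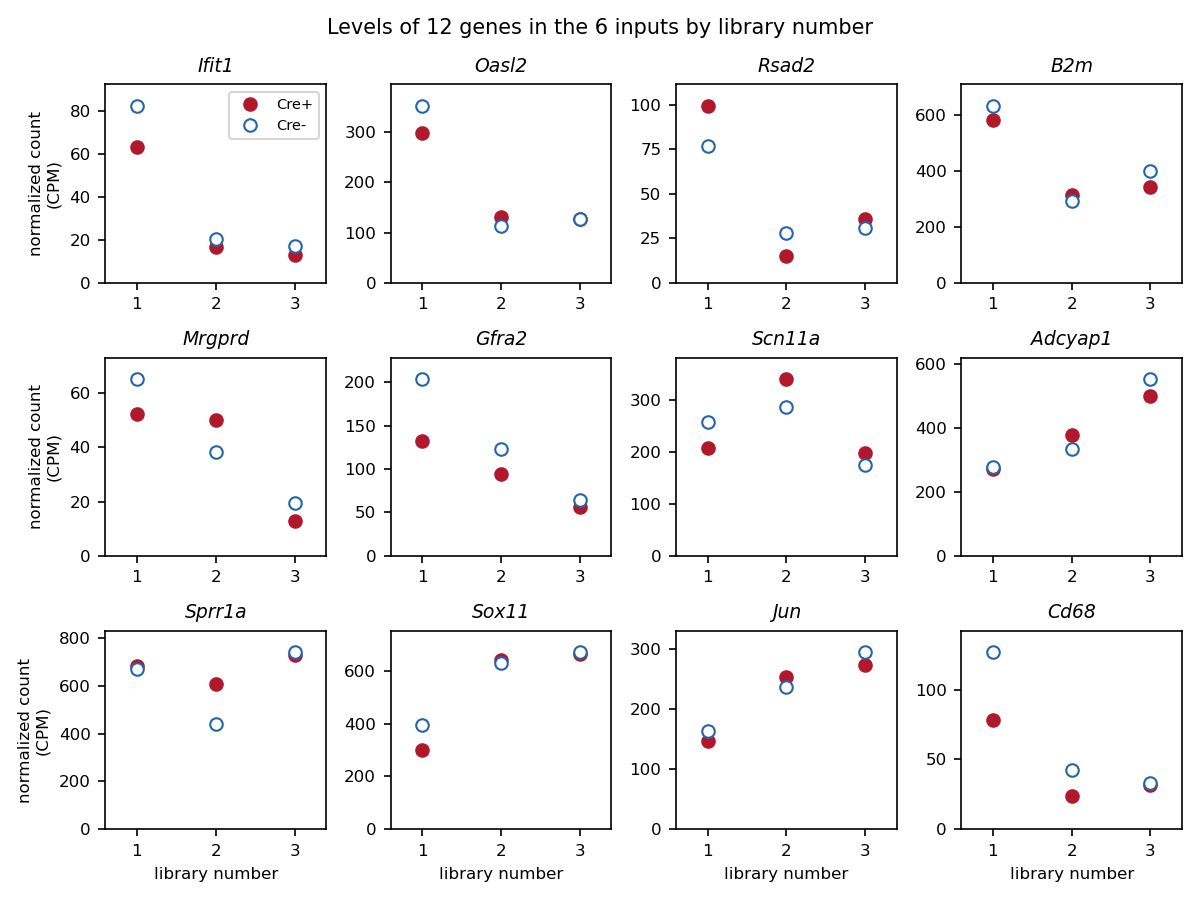
Normalized count (CPM) of 12 genes against the number of the library, for Cre+ (red filled) and Cre- (blue open), 1 point per library. Ifit1, Oasl2, Rsad2, B2m and Cd68 are higher and Sox11 and Jun lower in both libraries numbered 1, Mrgprd and Gfra2 are lowest and Adcyap1 highest in both libraries numbered 3, and Sprr1a is lowest in both numbered 2.

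A second contrast did not involve the libraries numbered 1. Between numbers 2 and 3, 115 genes were called (1.28%), 71 of them higher in number 2. They included 14 of the 132 list genes (10.6%), a share again not matched for level. This contrast was chosen after the values were seen, and in the test over all 3 numbers only 6 of the 14 were called (Gfra2, Mrgprd, Adcyap1, Hmox1, Fosl1 and Egr1), while Scn11a, Scn10a, Fosb, Col1a1, Sprr1a, Fn1, Myc and Nts were not (FDR 0.116 to 0.583). Of those 6 calls, all but that of Gfra2 were lost in some fit with 1 library left out. In such a fit its number rests on a single library. Of the nociceptor genes, Mrgprd, Gfra2, Scn11a and Scn10a were higher in number 2 and Adcyap1 was higher in number 3. Mrgprd, the receptor that marks non-peptidergic nociceptors, was at 50.1 and 38.1 in libraries numbered 2 and at 12.9 and 19.6 in those numbered 3, a 2.71-fold difference (FDR 0.00045 in edgeR), with 52.4 and 65.3 in those numbered 1. Gfra2, a receptor of the same fibers and of C low-threshold mechanoreceptors, was at 94.8 and 123 in number 2 and at 56.4 and 64.5 in number 3 (1.80-fold, FDR 0.00090). Scn11a was at 341 and 286 against 198 and 174 (1.68-fold, FDR 2.7e-05), and Scn10a, which most nociceptors share, at 712 and 665 against 580 and 544 (FDR 0.081). P2rx3, Gfra1 and Plxnc1 of the same class were not called (FDR 0.818, 0.929 and 0.556). Lpar3, with values in the Cre- table only, was at 39.8, 24.6 and 17.8 in inputs 1, 2 and 3.

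Adcyap1, the neuropeptide PACAP, which injured sensory neurons make in greater amounts, was at 380 and 334 in the libraries numbered 2 and at 501 and 554 in those numbered 3 (FDR 0.00022), while Calca and Tac1 were not called (FDR 0.935 and 0.746). Sprr1a was at 728 and 741 in number 3 and at 606 and 442 in number 2 (FDR 0.00071), with 683 and 669 in number 1 between them. Myc was lower in number 3 than in number 2, at 134 and 142 against 183 and 195 (FDR 0.047), with 144 and 219 in number 1. Nts was at 131 and 128 in number 3 against 86.9 and 91.9 (FDR 0.046), and its libraries numbered 1 held both the highest and the lowest value, 149 and 52.3. Of the immediate early and stress list Fosb, Fosl1, Hmox1 and Egr1 were lower in number 3 (FDR 0.020, 0.022, 0.012 and 0.028). In each of these called genes the pair of libraries of 1 number lay on the same side of the other pair. The libraries of a pair came from different mice of different genotype labels. Because the genes were picked by this contrast, such a split follows largely from the choice. Markers of other cells moved in part with this contrast. Col1a1 was at 29.4 and 24.3 in number 2 and at 11.1 and 12.7 in number 3 (FDR 0.037), Fn1 at 26.3 and 12.5 against 6.97 and 8.12 (FDR 0.083), and the other 4 fibroblast genes tested were not called. Of these, Col1a2 was at 16.1 and 19.3 against 6.40 and 9.37 (2.25-fold, FDR 0.102) and Postn was 2.54-fold higher with no overlap (FDR 0.231), while the values of Dcn and Pdgfra overlapped. The part of those cells, of culture and of library preparation in these differences was not tested.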

How the data were processed

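RNA was sequenced from inputs of cultured DRG neurons, 3 libraries per genotype label, grouped by the genotype and fraction in the labels and numbered as there. The authors aligned reads to mm10 with STAR and deposited, per genotype, counts of uniquely mapped fragments per gene from HTSeq on refFlat. The counts are whole numbers, not normalized. Each deposited table also gives an average FPKM per gene, computed by the authors with inputs and pull-downs not separated and used here only as a filter (mean of both tables above 1), and the authors' fold changes, p-values and FDR, which were not used, nor were 18 per-sample columns of normalized counts and ratios. The methods state rRNA depletion with a nanogram-scale kit, whereas the labels name a picogram-input kit.

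Tests used edgeR 4.0.16 (TMM, glmQLFit, glmQLFTest) in R 4.3.3 on the 8954 genes past the filter, with library size summed over the 9112 shared genes. A call for genotype needed an FDR below 0.1 with a change of at least 2-fold, and a call for library number an FDR below 0.1. Standard errors of log2 differences were derived from the F statistic. Same-numbered libraries of both genotypes deviated together from their group means (r = 0.27, 0.19 and 0.19 for numbers 1, 2 and 3, against -0.25 to 0.13 between different numbers, with 0 for unrelated libraries), so the numbers were taken to pair the samples by this check of the data, which the labels do not state. With the number as a replicate block the genotype test called 0 genes (298 at an unadjusted p below 0.05). Each sample pooled 5 mice, and the p-values treat the samples, or the pairs in fits with the block, as independent. Pooling alone does not show that.

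Lengths (99.5% of genes), exon overlaps and gene positions came from GENCODE M21 on GRCm38 and promoters from RefSeq GRCm38.p6, with 6906 genes matched by symbol. Strand use in counting is not given in the sources used here. The scripts were tested on simulated data. The lists and members were chosen with earlier results of these data known. Genes named are those of the lists, the 20 largest shares and the 20 highest per kb, 5 per direction with the smallest p among non-overlapping groups, any gene called by an alternative, the 10 most variable, Rpl22 and Runx3. Other genes named by library number, the interferon list, the comparison of numbers 2 and 3 and the length correction were chosen after the values were seen. A few of these genes are not reported here. Alternatives were DESeq2 1.42.0, edgeR's exact test, other filters and scalings, all 12 libraries, a replicate block, other thresholds and each library left out.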

Additional observations from a re-analysis of the deposited data

How the results depend on the processing

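No genotype call was made under the other filters, scalings and thresholds, in all 12 libraries, with the length trend removed or with the replicate block, and leaving out each library in turn without the block gave 0. DESeq2 and the exact test each called 1 gene, Stmn1. With the block and 1 library left out, a fit that rests on 2 pairs, 1 to 2 genes were called (settings chosen after seeing the data): Stmn1 without Cre+ 1, Cre+ 3, Cre- 1 or Cre- 3, Lonp1 without Cre+ 2, Cre+ 3, Cre- 2 or Cre- 3, and Actn1 without Cre+ 1 or Cre- 1. None of the 10 genes named for genotype changed direction. The number of genes called by library number was 302 with the block, 303 without the filter, 297 with library size alone, 321 with the length trend removed, 96 at an FDR of 0.05 and 115 for number 2 against number 3, and 287 to 3042 with 1 library left out. Of the genes named for it, Scn11a reached an FDR of 0.048 once the length trend was removed, and B2m, Gadd45a, Fosl1 and Mt1 went above 0.1. With 1 library left out its number rests on a single library, assumed to vary like the others. The calls of Mrgprd (0.102) and Hmox1 (0.146) were lost without Cre+ 3, and that of Adcyap1 (0.133) without Cre- 3. The cause was not tested. With library size alone, all 168 levels of named genes moved by less than 1 SD. Leaving out Cre+ 1 moved the mean of Lonp1 from 217 to 46.2 and that of Sox10 from 41.8 to 27.2, and no library moved any of the other levels by over 1.38-fold. Length scaling moved 12 of 17 list shares by over 1 SD. Limits from counts cover counting error only, because the reads carried no molecular identifiers, and genes under 5 counts in any Cre+ library are outside the tests.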
